A study of Mus musculus with 24 samples.

Results

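The genes described here are 50 members of the Wnt signalling pathway, taken from a count table of 53946 genes by matching their Ensembl identifiers to symbols. They comprise 10 Wnt ligands, 4 R-spondins, 10 Frizzled receptors, 2 Lrp co-receptors, 3 Lgr receptors, 4 TCF/LEF transcription factors, 8 target and feedback genes and 9 secreted or surface antagonists. All 50 were found in the table. The RNA came from ventral otocysts, the part of the embryonic inner ear that holds the developing cochlea, of C57BL/6J x 129X1/SvJ mouse embryos aged 14.5 days. Translating ribosome affinity purification (TRAP) uses an antibody against GFP to pull down ribosomes that carry an L10a-eGFP protein, which here was expressed in the Fgf20-Cre lineage whatever the genotype, and recovers the RNA bound to them. The 4 groups were Fgf20+/- TRAP libraries (TRAP het, n = 8), Fgf20-/- TRAP libraries (TRAP mut, n = 8), Fgf20+/- pre-TRAP libraries (pre-TRAP het, n = 4) and Fgf20-/- pre-TRAP libraries (pre-TRAP mut, n = 4), and none was Fgf20+/+. Tissue of 3 to 7 embryos that shared a genotype went into every library, and 2 experiments contributed equally to each group. The pre-TRAP libraries are read here from their name as RNA taken before the purification, although the labels describe the extraction of both kinds with the same text.

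Wnt ligands are secreted lipid-modified proteins that bind a Frizzled receptor and, in the canonical branch, an Lrp co-receptor. This stabilises beta-catenin, which enters the nucleus and acts with TCF/LEF factors on target genes such as Axin2. R-spondins bind Lgr receptors and hold back the ubiquitin ligases Rnf43 and Znrf3, which otherwise remove Frizzled from the cell surface, whereas Dkk, Sfrp, Frzb and Wif1 proteins act outside the cell against the ligands or co-receptors. In the embryonic cochlea the canonical branch is known for its part in progenitor proliferation and hair cell formation, and the beta-catenin-independent branch for the orientation of hair bundles.

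Total counts ran from 30745166 to 53374796 per library. Fgf20, the targeted gene, stood at 4.19 ± 0.978 CPM (counts per 1000000 after TMM scaling; SD, n = 8) in TRAP het and 2.24 ± 0.729 (SD, n = 8) in TRAP mut, and at 0.885 ± 0.584 (SD, n = 4) and 0.236 ± 0.0689 (SD, n = 4) in pre-TRAP het and mut. Its mean was thus lower in the mutant by both methods, although RNA from the locus was counted in all mutant libraries. The genotype comparisons described below did not call Fgf20 at an adjusted p under 0.05. Its log2 difference was -0.94 ± 0.22 (SE, adjusted p = 0.188, edgeR) in TRAP and -1.75 ± 0.45 (SE, adjusted p = 0.837, edgeR) in pre-TRAP. The 4 TRAP libraries numbered 3, 4, 5 and 6 in the labels, 1 in each combination of genotype and experiment, stood apart: they held 1444 to 5562 CPM of RNA from 7 otic capsule cartilage markers against 466 to 912.6 CPM in the other 12 TRAP libraries. Calls that change without them, and some of the values, are given beside the results, a choice made after seeing the data.

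The TCF/LEF core motif ATCAAAG was searched on both strands in the RefSeq promoters of the members (GRCm38.p6, 250 bases before to 50 after each start), and the stretches that held it are shown because their genes are a textbook Wnt target and 2 ligands with differences between the libraries. Promoters were at hand for 33 of the 50 genes, 42 in all, and 3 of the 42 (7.14%) held the core, against 1225 of 32851 promoters of the same length in the mouse table (3.73%). Capitals mark the core, which reads CTTTGAT where it lies on the opposite strand, and each sequence is written 5′ to 3′ on the strand of its gene.
Sp5 (chr2:70474769-70474875, plus strand, core 104 to 98 bases before the start): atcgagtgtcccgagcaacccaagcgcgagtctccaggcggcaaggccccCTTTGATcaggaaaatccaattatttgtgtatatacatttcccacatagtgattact
Wnt11 (chr7:98835011-98835111, plus strand, core 51 to 45 bases before the start): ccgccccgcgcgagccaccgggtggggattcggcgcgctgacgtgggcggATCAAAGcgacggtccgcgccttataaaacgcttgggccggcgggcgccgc
Wnt5b (chr6:119449401-119449507, minus strand, core 71 to 65 bases before the start): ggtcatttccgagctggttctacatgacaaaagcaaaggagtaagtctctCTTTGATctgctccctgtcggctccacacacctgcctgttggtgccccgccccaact
The match is a description of letters and not of a bound site. Wnt11 and Wnt5b were both lower in TRAP than in pre-TRAP libraries and Sp5 was not called over both genotypes together, as given below.

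TRAP against pre-TRAP libraries asked which Wnt genes were more or less abundant in ribosome-bound RNA of the Fgf20-Cre lineage than in the libraries not taken through the purification. Most members were lower in TRAP: of the 48 tested by edgeR's quasi-likelihood test, 32 fell, 6 rose and 10 were not called, the threshold being 0.05 after Benjamini-Hochberg adjustment over all genes. The 6 that rose were the ligands Wnt3, Wnt7a and Wnt7b, the R-spondin Rspo2, the receptor Fzd8 and the Dkk receptor Kremen1. Over all 24242 genes tested 59.1% were called, 27.9% as higher and 31.2% as lower, and the median log2 fold change was -0.67 over the members and -0.01 over all genes. The remaining 2 members, Wnt2b and Rspo4, were under the filter on low counts, with at most 8 and 5 counts in any library. In the plot of log2 fold changes by role, ligands and R-spondins span both sides of 0, while most receptors, TCF/LEF factors, targets and antagonists lie on the lower side.

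**Figure D1:**
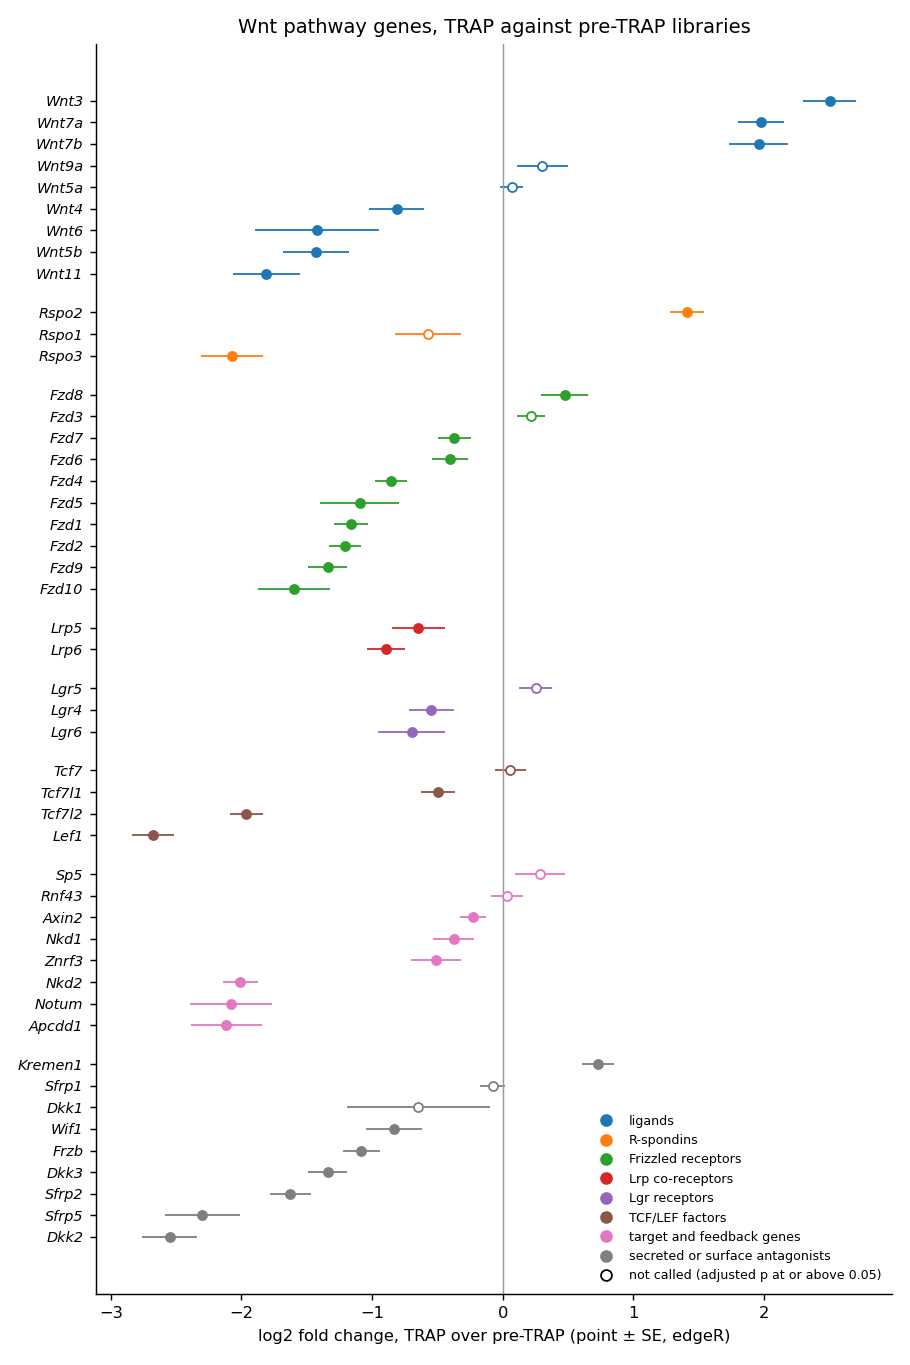
Log2 fold change of TRAP over pre-TRAP libraries for the 48 members tested (point, with SE as the bar), grouped and coloured by role; open points were not called at an adjusted p under 0.05 in edgeR. Wnt3 has the highest value (2.50) and Lef1 the lowest (-2.68).

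Among the 9 ligands tested, 3 rose, 4 fell and 2 were not called. Wnt3, a ligand of the canonical branch, was read at 1.49, 0.595, 1.19 and 0.874 CPM in the pre-TRAP het libraries and 1.27, 0.702, 1.39 and 1.15 CPM in pre-TRAP mut. Its TRAP values were 3.76 to 7.13 CPM (median 5.95) in het and 3.92 to 9.68 CPM (median 6.05) in mut. All 16 TRAP libraries were above all 8 pre-TRAP libraries, and the difference was 2.50 ± 0.20 (SE) on the log2 scale, or 5.67-fold (adjusted p = 4.72e-11, edgeR). Wnt7a, a ligand made by the cochlear epithelium, had pre-TRAP values of 1.78, 3.37, 2.31 and 1.55 CPM in het and 1.05, 1.20, 1.54 and 1.51 CPM in mut. In TRAP it reached 5.21 to 10.8 CPM (median 7.74) in het and 3.80 to 7.75 CPM (median 5.80) in mut, again without overlap, a log2 difference of 1.98 ± 0.18 (SE, adjusted p = 3.41e-10, edgeR). Its close relative Wnt7b rose by 1.96 ± 0.23 (SE) log2, with overlap: the lowest TRAP library, at 9.79 CPM, was below 2 pre-TRAP het libraries, at 10.8 and 9.97 CPM.

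The ligands that fell were Wnt11, Wnt5b, Wnt6 and Wnt4. Wnt11, which signals mainly outside the beta-catenin branch, stood at 0.902, 0.935, 0.978 and 1.27 CPM in pre-TRAP het and 0.665, 0.805, 1.54 and 1.15 CPM in pre-TRAP mut. TRAP het held 0.102 to 0.617 CPM (median 0.217) and TRAP mut 0.124 to 0.546 CPM (median 0.304), all below every pre-TRAP library, for a log2 change of -1.81 ± 0.25 (SE, adjusted p = 8.42e-07, edgeR). Wnt5b, a relative of Wnt5a, had 2.45, 2.83, 1.81 and 1.52 CPM in pre-TRAP het and 1.41, 2.70, 1.75 and 1.26 CPM in pre-TRAP mut. TRAP values were 0.208 to 1.38 CPM (median 0.794) in het and 0.387 to 1.46 CPM (median 0.527) in mut, and the log2 change was -1.43 ± 0.25 (SE, adjusted p = 2.26e-05, edgeR). Here the groups overlapped, since the highest TRAP mut library (1.46 CPM, library 6) was above 2 pre-TRAP mut libraries. Wnt6 and Wnt4 fell by 1.43 ± 0.47 (SE) and 0.81 ± 0.21 (SE) on the log2 scale. Wnt6 was not called without pre-TRAP library 19 (-1.07 ± 0.48, SE). Wnt4 is also among the 6 roof and non-sensory epithelium markers used here, all of which were lower in TRAP. Wnt5a, the ligand tied to hair bundle orientation, and Wnt9a differed by 0.07 ± 0.09 (SE) and 0.30 ± 0.20 (SE) and were not called. Wnt9a was called as higher without pre-TRAP library 19 (0.48 ± 0.20, SE).

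Of the R-spondins, Rspo2 rose and Rspo3 fell. Rspo2 read 4.20, 3.40, 3.56 and 2.99 CPM in pre-TRAP het and 2.27, 2.15, 2.19 and 2.69 CPM in pre-TRAP mut, against 5.69 to 9.92 CPM (median 7.61) in TRAP het and 5.99 to 9.24 CPM (median 7.39) in TRAP mut. No TRAP library overlapped a pre-TRAP library, and the log2 difference was 1.41 ± 0.13 (SE, adjusted p = 4.76e-10, edgeR). Rspo3 read 5.02, 4.02, 2.05 and 3.83 CPM in pre-TRAP het and 4.60, 3.37, 4.03 and 4.06 CPM in pre-TRAP mut. In TRAP it was 0.223 to 2.02 CPM (median 0.823) in het and 0.577 to 1.68 CPM (median 0.848) in mut, all below the pre-TRAP libraries, with a log2 change of -2.07 ± 0.24 (SE, adjusted p = 2.78e-08, edgeR). Rspo1 differed by -0.57 ± 0.25 (SE) and missed the threshold (adjusted p = 0.0549, edgeR). Of the 24 fits that left out 1 library, 8 called it as lower. It was the 1 member called by limma voom with quality weights and not by edgeR.

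Of the 10 Frizzled receptors 8 fell, 1 rose and 1, Fzd3 (0.22 ± 0.11, SE), was not called. The 8 log2 changes were -1.60 for Fzd10, -1.34 for Fzd9, -1.21 for Fzd2, -1.16 for Fzd1, -1.09 for Fzd5, -0.85 for Fzd4, -0.40 for Fzd6 and -0.37 for Fzd7. Fzd6 was not called without pre-TRAP library 19 (-0.31) and Fzd7 not without library 18 or 19 (-0.30 and -0.24), and neither was called in the het or the mut libraries alone. Fzd3 was called as higher without TRAP libraries 3 to 6 (0.29 ± 0.11, SE), and in 3 of the 24 fits that left out 1 library. Fzd9 read 19.9, 17.3, 7.80 and 9.72 CPM in pre-TRAP het and 11.6, 9.50, 9.82 and 10.3 CPM in pre-TRAP mut, and 3.07 to 7.85 CPM (median 5.43) in TRAP het and 2.51 to 5.25 CPM (median 4.12) in TRAP mut. Only the highest TRAP het library reached the lowest pre-TRAP het value, and the change was -1.34 ± 0.15 (SE, adjusted p = 2.34e-08, edgeR). Fzd10 rested on 5 to 72 counts per library. Its TRAP values were 0.131 to 0.916 CPM (median 0.392) in het and 0.131 to 0.622 CPM (median 0.455) in mut, while pre-TRAP libraries held 1.58, 2.04, 1.00 and 1.07 CPM in het and 1.16, 1.09, 1.72 and 0.897 CPM in mut, a change of -1.60 ± 0.27 (SE, adjusted p = 1.59e-05, edgeR). The exception, Fzd8, had 3.30, 2.41, 1.34 and 2.25 CPM in pre-TRAP het and 1.86, 1.57, 1.27 and 1.82 CPM in pre-TRAP mut, and 1.94 to 6.22 CPM (median 2.63) in TRAP het and 1.44 to 4.36 CPM (median 2.15) in TRAP mut. Its groups overlapped widely, and 1 TRAP het library (library 1, at 6.22 CPM) stood far above the rest. Its rise of 0.47 ± 0.18 (SE, adjusted p = 0.0266, edgeR) was no longer called when pre-TRAP library 18, 21, 23 or 24 was left out (log2 0.46, 0.41, 0.43 and 0.45), and with voom weights (0.30 ± 0.16, SE).

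Both Lrp co-receptors and 2 of the 3 Lgr receptors fell. Lrp6 read 55.7, 66.1, 37.9 and 33.8 CPM in pre-TRAP het and 41.5, 37.8, 31.2 and 36.4 CPM in pre-TRAP mut, against 16.9 to 42.5 CPM (median 23.6) in TRAP het and 15.4 to 27.1 CPM (median 19.0) in TRAP mut. Only the 1 highest TRAP het library (library 9) reached into the pre-TRAP range, and the change was -0.89 ± 0.15 (SE, adjusted p = 8.82e-06, edgeR). Lrp5 read 3.02, 2.81, 1.79 and 2.59 CPM and 2.44, 1.51, 1.99 and 3.08 CPM in pre-TRAP het and mut, and 0.668 to 2.99 CPM (median 1.64) and 0.849 to 2.76 CPM (median 1.29) in TRAP het and mut. Its fall of 0.65 ± 0.20 (SE, adjusted p = 0.00764, edgeR) came with overlap and missed the threshold without pre-TRAP library 19 (-0.49 ± 0.21, SE).

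Among the R-spondin receptors, Lgr4 read 27.7, 39.8, 23.2 and 29.1 CPM in pre-TRAP het and 30.4, 41.2, 44.6 and 26.8 CPM in pre-TRAP mut, and 11.1 to 34.1 CPM (median 20.9) in TRAP het and 11.1 to 38.2 CPM (median 22.4) in TRAP mut. The change was -0.55 ± 0.17 (SE, adjusted p = 0.00767, edgeR), within overlapping ranges. Lgr6 read 1.30, 1.08, 1.60 and 0.845 CPM and 0.665, 0.846, 1.13 and 0.897 CPM in pre-TRAP het and mut, and 0.248 to 1.07 CPM (median 0.630) and 0.221 to 0.878 CPM (median 0.707) in TRAP het and mut. It fell by 0.70 ± 0.26 (SE, adjusted p = 0.0224, edgeR), and was not called without pre-TRAP library 21 or 22 (-0.59 and -0.61). Lgr5, which marks progenitors of hair and supporting cells in the cochlear floor and is itself a Wnt target, was between 4.58 and 8.91 CPM in TRAP and between 4.48 and 6.38 CPM in pre-TRAP. Its difference of 0.25 ± 0.12 (SE) was not called (adjusted p = 0.0833, edgeR), but was called as higher without TRAP library 5 or 11 (0.30 and 0.29).

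Of the TCF/LEF factors, Lef1 and Tcf7l2 fell furthest. Lef1, an activator in most settings and often itself a Wnt target, read 99.5, 101, 87.7 and 94.9 CPM in pre-TRAP het and 87.0, 73.7, 75.1 and 81.5 CPM in pre-TRAP mut. In TRAP it was 7.21 to 20.9 CPM (median 12.9) in het and 9.20 to 19.3 CPM (median 12.7) in mut. All TRAP libraries lay far below the lowest pre-TRAP library, and the change was -2.68 ± 0.16 (SE, adjusted p = 1.24e-13, edgeR), or 6.39-fold lower. Tcf7l2 read 194, 163, 197 and 209.5 CPM and 246, 202, 186 and 202 CPM in pre-TRAP het and mut, and 35.5 to 86.7 CPM (median 46.2) and 33.6 to 77.2 CPM (median 53.1) in TRAP het and mut. These groups did not overlap either, and the change was -1.96 ± 0.13 (SE, adjusted p = 4.51e-13, edgeR). Tcf7l1, mainly a repressor, fell by 0.50 ± 0.13 (SE). Tcf7, the remaining member of the family, differed by 0.06 ± 0.12 (SE) and was not called.

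The target and feedback genes divided. Apcdd1, Notum and Nkd2 fell the most of the 8, and the call for Axin2, the textbook target, hung on single libraries. Apcdd1, a membrane protein that binds ligands and co-receptors, read 2.59, 3.12, 3.22 and 1.47 CPM in pre-TRAP het and 1.58, 3.47, 2.82 and 2.07 CPM in pre-TRAP mut, and 0.322 to 0.982 CPM (median 0.669) in TRAP het and 0.155 to 1.20 CPM (median 0.485) in TRAP mut. The change was -2.12 ± 0.27 (SE, adjusted p = 2.05e-07, edgeR), without overlap. Notum, an enzyme that strips the lipid from Wnt proteins, read 0.958, 0.850, 0.978 and 0.395 CPM and 0.610, 0.413, 0.890 and 0.420 CPM in pre-TRAP het and mut, and 0.0297 to 0.280 CPM (median 0.142) and 0.0516 to 0.369 CPM (median 0.175) in TRAP het and mut. It rested on 1 to 41 counts per library, and changed by -2.08 ± 0.31 (SE, adjusted p = 2.42e-06, edgeR). Nkd2 changed by -2.01 ± 0.13 (SE), also without overlap, while Nkd1, the other Dishevelled-binding Nkd protein, changed by -0.38 ± 0.16 (SE). Znrf3 fell by 0.51 ± 0.19 (SE), and was not called without pre-TRAP library 19 or 22 (-0.43 and -0.45).

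Axin2 stood between 6.96 and 11.0 CPM in TRAP and read 13.8, 11.4, 8.49 and 9.84 CPM in pre-TRAP het and 9.56, 7.76, 9.94 and 10.6 CPM in pre-TRAP mut. Its change of -0.23 ± 0.10 (SE) was called (adjusted p = 0.0472, edgeR), but only 8 of the 24 fits that left out 1 library called it, and as many called Nkd1. Both were nearest to 0 without pre-TRAP library 19 (-0.15 and -0.22). Neither was called without TRAP libraries 3 to 6 (-0.18 and -0.26). Sp5, a transcription factor induced by Wnt, and Rnf43, the partner of Znrf3, differed by 0.29 ± 0.19 (SE) and 0.03 ± 0.12 (SE) and were not called. The 2 genotypes differed in sign for Sp5. It was called as higher in the mut libraries alone (0.77 ± 0.26, SE, adjusted p = 0.0190, edgeR) and was at -0.19 ± 0.27 (SE) in the het libraries alone, not called.

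Of the 9 antagonists, 6 fell, 1 rose and 2 were not called. Dkk2, which binds the Lrp co-receptors, read 12.0, 12.6, 12.1 and 10.4 CPM in pre-TRAP het and 10.3, 16.2, 12.5 and 12.7 CPM in pre-TRAP mut, against 0.888 to 4.24 CPM (median 2.03) in TRAP het and 1.33 to 3.36 CPM (median 1.86) in TRAP mut. The groups did not overlap and the change was -2.55 ± 0.21 (SE, adjusted p = 6.24e-11, edgeR). Sfrp5, a soluble decoy for ligands, read 2.42, 1.36, 1.07 and 1.58 CPM and 0.693, 1.28, 0.979 and 1.68 CPM in pre-TRAP het and mut, and 0.0743 to 0.536 CPM (median 0.256) and 0.128 to 0.513 CPM (median 0.244) in TRAP het and mut. It too did not overlap and fell by 2.30 ± 0.29 (SE, adjusted p = 1.20e-07, edgeR). The others that fell were Sfrp2 (-1.62), Dkk3 (-1.34), Frzb (-1.08) and Wif1 (-0.83), the first 3 without overlap. Wif1 was called in the mut libraries alone (-1.24 ± 0.28, SE) but not in the het libraries alone (-0.41 ± 0.31, SE).

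Kremen1, a membrane receptor for Dkk proteins, rose. It read 7.50, 5.44, 3.10 and 7.04 CPM in pre-TRAP het and 8.15, 3.78, 4.33 and 6.22 CPM in pre-TRAP mut, and 6.52 to 13.4 CPM (median 9.10) in TRAP het and 5.24 to 14.4 CPM (median 9.45) in TRAP mut. The difference was 0.73 ± 0.12 (SE, adjusted p = 7.97e-06, edgeR), with overlapping ranges over both experiments. Sfrp1 differed by -0.08 ± 0.09 (SE) and was not called. Whether it differed from Sfrp2 and Sfrp5 in this was not tested. Dkk1, at no more than 18 counts in any library, differed by -0.64 ± 0.55 (SE).

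**Figure D2:**
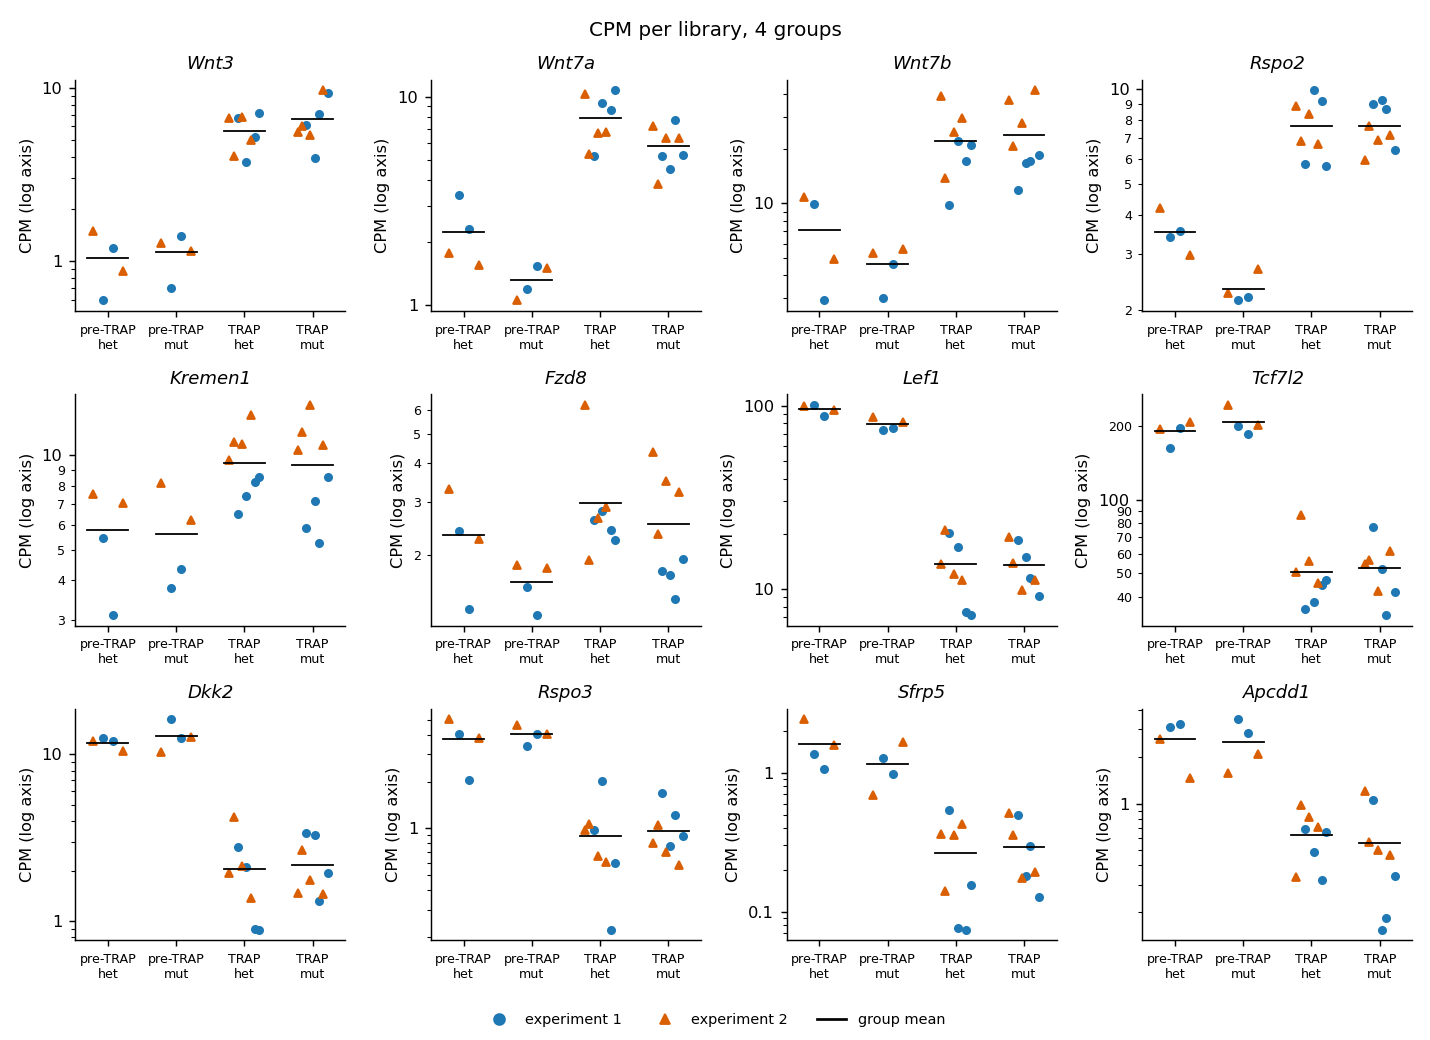
CPM in each library on a log axis for 12 members in the 4 groups, with circles for experiment 1, triangles for experiment 2 and a line at the group mean. For Wnt3, Wnt7a and Rspo2 all TRAP points lie above the pre-TRAP points, and for Lef1, Tcf7l2, Dkk2, Rspo3, Sfrp5 and Apcdd1 all lie below; for Wnt7b, Kremen1 and Fzd8 they overlap.

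TRAP and pre-TRAP values did not overlap for 18 of the 48 members, 3 higher and 15 lower, whereas 14.7% of all genes tested were free of overlap (6.33% higher, 8.32% lower). Of the 38 members called, 32 kept their call and direction in experiment 1 alone and 25 in experiment 2 alone, while 29 did so in the het libraries alone and 30 in the mut libraries alone. DESeq2, which called 60.2% of all genes, kept all 38, and limma voom with quality weights, which called 64%, kept 37 and lost Fzd8. Without TRAP libraries 3 to 6, 36 of the 38 kept it, and the log2 values of Lef1, Dkk2 and Tcf7l2 were -2.86, -2.84 and -2.08.

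Many cell type markers moved between the methods as well. All 9 prosensory markers rose, from sums of 149.6 to 222.8 CPM in pre-TRAP to 604.5 to 886.6 CPM in TRAP libraries, and so did all 9 neuron markers, from 496.5 to 776.1 CPM to 2540 to 4862 CPM. Of 12 periotic mesenchyme markers 10 fell and 1 rose (1019 to 1511 CPM in pre-TRAP, 286.9 to 1268 CPM in TRAP), of 7 cartilage markers 5 fell (1973 to 4060 CPM and 466 to 5562 CPM), and all 6 roof and non-sensory epithelium markers fell (352.4 to 801.6 CPM and 120.5 to 302.5 CPM). All 6 endothelial and all 7 erythroid markers fell too, to 3.38 to 14.7 CPM and 458 to 1599 CPM. No marker of these lists was at 0 in all libraries of a group, and their part in the Wnt gene differences was not tested. In such bulk RNA, fewer cells of a type and less RNA per cell cannot be told apart.

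Some of the lowered members had their highest TRAP values among libraries 3 to 6, where cartilage RNA was highest. Dkk2 was at 2.68 to 4.24 CPM in libraries 3 to 6 and at 0.888 to 3.28 CPM in the other 12, and Lef1 at 13.9 to 20.9 CPM and 7.21 to 19.3 CPM. Other lowered members had their highest TRAP value outside libraries 3 to 6. Among them, Apcdd1 reached 1.06 CPM in these 4 and 1.20 CPM in the other 12, and Rspo3 1.68 and 2.02 CPM. The highest TRAP values of Dkk2 and Lef1 lay below the lowest pre-TRAP value of each gene. The part of cartilage RNA in these values was not tested.

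A list of 62 further Wnt pathway genes gave 19 that rose, 20 that fell and 13 that were not called of 52 tested in TRAP against pre-TRAP. The largest rises were 2.81 ± 0.26 (SE, adjusted p = 5.87e-10) for Dkkl1, a Dickkopf-like gene, and 2.19 ± 0.23 (SE, adjusted p = 5.85e-09) for Draxin, a secreted axon guidance protein that also binds Lrp6. The largest falls were -2.54 ± 0.19 (SE, adjusted p = 1.25e-11) for Ccn4, a secreted matricellular Wnt target, and -2.30 ± 0.18 (SE, adjusted p = 1.78e-11) for Sostdc1, a secreted BMP and Wnt antagonist. Of the 16 genes of the destruction complex and signal transduction 8 rose and 5 fell, and of the 5 other receptors 4 fell and none rose.

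Loss of Fgf20 was compared with heterozygosity within each method. As given above, edgeR did not call Fgf20 itself in either comparison, so an uncalled member is not shown to be unchanged. In TRAP libraries no Wnt member was called in either direction, of 46 tested, by edgeR, DESeq2 or limma voom, against 0.0742% of all 21577 genes in edgeR, 0.246% in DESeq2 and 0.144% in voom. An unadjusted p under 0.05 was reached by 3 members (3.77% of all genes did), and 28 of the 46 had a negative log2 fold change, against 53.7% of all genes. The median was -0.05 over the members and -0.02 over all genes. The share of negative values moved with the libraries used. It was 34 of 47 members (72.3%) without TRAP libraries 3 to 6 and 24 of 48 (50%) without library 16.

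The lowest p belonged to Fzd9, a Frizzled receptor, which held 3.07 to 7.85 CPM (median 5.43) in TRAP het and 2.51 to 5.25 CPM (median 4.12) in TRAP mut. The ranges overlapped, and the difference of -0.53 ± 0.18 (SE, unadjusted p = 0.00709, adjusted p = 0.910, edgeR) was -0.65 in experiment 1 and -0.38 in experiment 2. Wnt7a held 5.21 to 10.8 CPM (median 7.74) in TRAP het and 3.80 to 7.75 CPM (median 5.80) in TRAP mut, overlapping, with a difference of -0.46 ± 0.19 (SE, unadjusted p = 0.0241, edgeR) that was -0.59 and -0.30 in experiments 1 and 2. Rspo1 held 0.224 to 0.743 CPM (median 0.428) in het and 0.0856 to 0.491 CPM (median 0.238) in mut, and differed by -0.79 ± 0.34 (SE, unadjusted p = 0.0316, edgeR), with -0.18 in experiment 1 and too few counts for a fit in experiment 2. The adjusted p of Wnt7a and Rspo1 was 1. Without libraries 3 to 6 the log2 values of Fzd9, Wnt7a and Rspo1 were -0.54, -0.51 and -1.06, and none was called.

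Axin2, the textbook target, held 6.96 to 10.3 CPM (median 8.10) in TRAP het and 7.49 to 11.0 CPM (median 8.96) in TRAP mut, with a genotype difference of 0.11 ± 0.12 (SE) that was not called. The other members of lowest and highest estimate among targets and factors were likewise uncalled: Sp5 differed by 0.46 ± 0.23 (SE) and Tcf7l1 by -0.32 ± 0.16 (SE). Lgr5 differed by -0.12 ± 0.15 (SE) and Rspo2, the R-spondin that was higher in TRAP, by -0.03 ± 0.15 (SE).

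In pre-TRAP libraries the genotype comparison also called no Wnt member of 47 tested by edgeR, DESeq2 or limma voom, where 0.00455% of all 21954 genes were called by edgeR, 0.00911% by DESeq2 and 0.00455% by voom. An unadjusted p under 0.05 was found for 4 members (4.77% of all genes), namely Rspo2, Wnt7a and Tcf7, lower in the mutant, and Wif1, higher. Rspo2 read 4.20, 3.40, 3.56 and 2.99 CPM in het and 2.27, 2.15, 2.19 and 2.69 CPM in mut. All 4 mut values lay below the het values, and the difference was -0.61 ± 0.20 (SE, unadjusted p = 0.00953, adjusted p = 0.837, edgeR), with -0.66 and -0.52 in experiments 1 and 2. Wnt7a read 1.78, 3.37, 2.31 and 1.55 CPM in het and 1.05, 1.20, 1.54 and 1.51 CPM in mut, without overlap. Its difference was -0.73 ± 0.26 (SE, unadjusted p = 0.0141, edgeR), being -1.04 in experiment 1 and -0.36 in experiment 2.

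Wif1, a secreted inhibitor that binds Wnt proteins, read 2.88, 2.52, 2.94 and 2.23 CPM in pre-TRAP het and 3.35, 4.89, 3.17 and 4.76 CPM in pre-TRAP mut. It went the other way, by 0.62 ± 0.22 (SE, unadjusted p = 0.0149, edgeR), again without overlap. Tcf7 read 7.41, 8.67, 7.66 and 5.92 CPM and 5.49, 4.00, 5.87 and 5.46 CPM, all mut values below all het values, a difference of -0.51 ± 0.20 (SE, unadjusted p = 0.0217, edgeR). Lef1 was the fifth member without overlap, at 99.5, 101, 87.7 and 94.9 CPM and 87.0, 73.7, 75.1 and 81.5 CPM, and differed by -0.28 ± 0.13 (SE, unadjusted p = 0.0575, edgeR). Of all genes tested 1.28% were without overlap. The adjusted p of all 5 was 0.837.

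Negative estimates were frequent in this comparison: 36 of the 47 members (76.6%) were below 0, against 54% of all genes, with a median of -0.24 against -0.03. All 10 Frizzled receptors had an estimate below 0, in edgeR and under DESeq2 size factors, and none was called. The median leaned on single libraries. Leaving out pre-TRAP het library 17 or 19 brought the members' median to -0.09 and -0.08. The share below 0 moved less, to 35 of 48 members (72.9%) without library 17 and 33 of 48 (68.8%) without library 19. Of the 10 Frizzled estimates, 9 stayed below 0 without library 19 or without mut library 24. In pre-TRAP het, libraries 17 and 19 had the highest values of Fzd1, Fzd2, Fzd9, Lrp6 and Wnt7b. In TRAP, 8 of the 10 Frizzled estimates were below 0, and 7 under DESeq2 size factors.

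**Figure D3:**
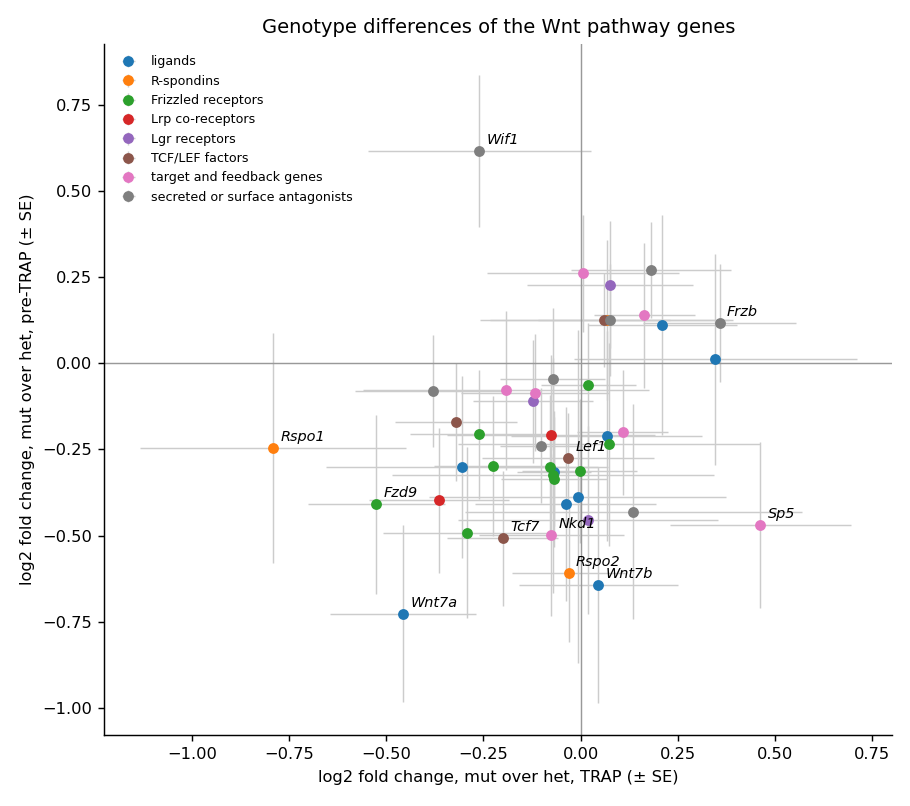
Log2 fold change of Fgf20-/- over Fgf20+/- in TRAP (horizontal) and in pre-TRAP (vertical) libraries for each member tested in both, coloured by role, with SE as grey bars. No point was called in either comparison; most points lie below 0 on the vertical axis, and Wif1 is the highest there.

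**Figure D4:**
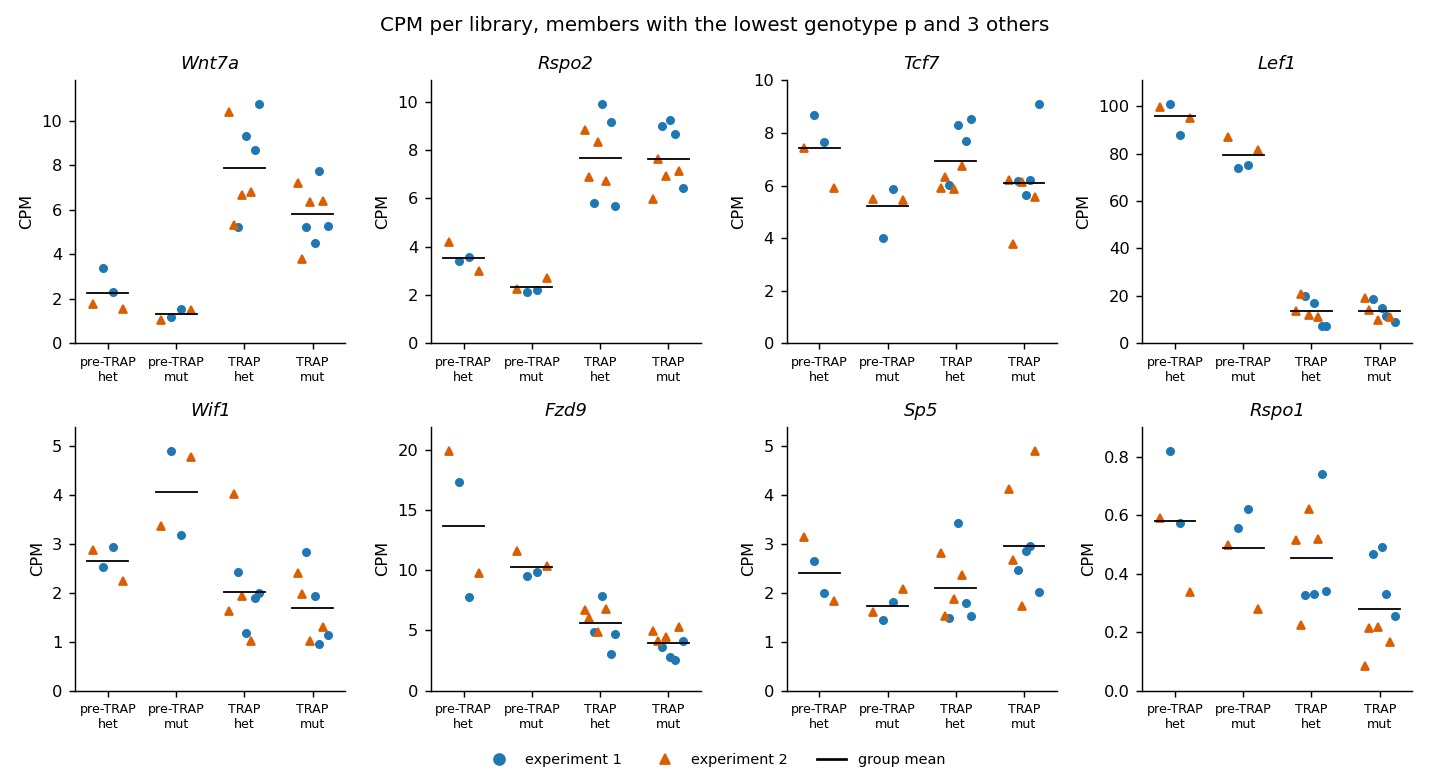
CPM in each library for 8 members in the 4 groups, with circles for experiment 1, triangles for experiment 2 and a line at the group mean. The pre-TRAP het and mut points of Wnt7a, Rspo2, Tcf7, Lef1 and Wif1 do not overlap, while the TRAP het and mut points of all 8 do.

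Whether the genotype difference itself differed between the methods was tested over all 24 libraries. No member of 48 and no gene of 24242 (0%) was called by edgeR, DESeq2 or limma voom, and 2 members had an unadjusted p under 0.05 (1.25% of all genes). Sp5 held 1.49 to 3.43 CPM (median 1.82) in TRAP het and 1.73 to 4.89 CPM (median 2.75) in TRAP mut, and read 3.13, 2.63, 1.98 and 1.83 CPM in pre-TRAP het and 1.61, 1.45, 1.81 and 2.07 CPM in pre-TRAP mut. Its mutant mean was thus higher in TRAP and lower in pre-TRAP, and the interaction was 0.95 ± 0.37 (SE, unadjusted p = 0.0174, edgeR). For Rspo2 the interaction was 0.59 ± 0.24 (SE, unadjusted p = 0.0228, edgeR) and for Wif1 -0.86 ± 0.44 (SE, unadjusted p = 0.0583, edgeR), both with an adjusted p of 1 in edgeR.

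The prosensory markers had a median genotype difference of -0.44 in TRAP, with 1 of 9 called as lower by edgeR, the Notch target Hey2 (-1.13 ± 0.14, SE), and of -0.39 in pre-TRAP, with none called. Fgf20 is among these 9. Of the 5 markers of the medial Kolliker organ, 2 rose and 1 fell in TRAP and 1 fell in pre-TRAP, Tectb in both cases of a fall (-1.91 ± 0.15, SE, and -1.90 ± 0.15, SE). Hey2 and Tectb are named after their values were seen. The cartilage and mesenchyme markers had medians of -0.02 and -0.16 in TRAP and of -0.28 and -0.13 in pre-TRAP, with none called by edgeR. Their part in the uncalled Wnt differences was not tested. None of the 50 further Wnt pathway genes tested was called by edgeR in either genotype comparison, and 5 had an unadjusted p under 0.05 in each. DESeq2 and limma voom each called 1 of them in TRAP, Ccnd1, the cyclin D1 gene, and none in pre-TRAP. Ccnd1, named after its values were seen, had a log2 value of -0.55 ± 0.11 (SE, adjusted p = 0.0802) in edgeR.

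Experiments 1 and 2, which the labels name as batches, differed in many genes, several members among them. Among 46 members in TRAP libraries 8 rose and 2 fell in experiment 2, where 23% of all genes were called, 14.1% as higher and 8.81% as lower. In pre-TRAP libraries 2 of 47 rose and 3 fell, where 14.7% of all genes were called, 9.74% as higher and 4.97% as lower. Rnf43, Kremen1, Wnt5a and Fzd6 were called in both with the same sign, that is 4 of the 10 members called in TRAP and 4 of the 5 called in pre-TRAP. These 4 are 8.7% of the 46 members tested in both, a share near the 11.3% of all 20437 genes tested in both.

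Rnf43, a ubiquitin ligase that removes Frizzled receptors, was at 2.11 to 3.03 CPM (median 2.57) in the 8 TRAP libraries of experiment 1 and at 5.53 to 7.49 CPM (median 6.38) in those of experiment 2. Pre-TRAP libraries read 3.51, 2.75, 2.03 and 3.44 CPM in experiment 1 and 4.71, 5.52, 5.66 and 5.77 CPM in experiment 2. The experiments did not overlap by either method, and the differences were 1.38 ± 0.13 (SE) in TRAP (adjusted p = 1.74e-07, edgeR) and 0.90 ± 0.21 (SE) in pre-TRAP (adjusted p = 0.0122, edgeR). Kremen1 was likewise higher in experiment 2, at 5.24 to 8.52 CPM (median 7.28) and 9.67 to 14.4 CPM (median 10.9) in TRAP. In pre-TRAP it read 5.44, 3.78, 3.10 and 4.33 CPM and 7.50, 8.15, 7.04 and 6.22 CPM, and it rose by 0.73 ± 0.14 (SE) and 0.81 ± 0.21 (SE) in the 2 methods.

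Wnt5a was lower in experiment 2. It was at 28.8 to 37.9 CPM (median 31.6) and 21.8 to 27.9 CPM (median 24.1) in TRAP and read 34.4, 32.0, 39.4 and 29.2 CPM and 27.5, 21.3, 20.8 and 16.4 CPM in pre-TRAP, without overlap in either. The changes were -0.34 ± 0.10 (SE, adjusted p = 0.0126, edgeR) and -0.65 ± 0.16 (SE, adjusted p = 0.0147, edgeR). Fzd6, a receptor of the planar polarity branch, was at 2.78 to 5.11 CPM (median 4.09) and 1.68 to 3.70 CPM (median 2.67) in TRAP, overlapping, and read 7.03, 5.22, 5.37 and 5.46 CPM and 3.55, 3.52, 3.49 and 2.63 CPM in pre-TRAP. It fell by 0.61 ± 0.18 (SE) and 0.80 ± 0.19 (SE) on the log2 scale in the 2 methods. Znrf3, the partner of Rnf43, fell in pre-TRAP by 0.74 ± 0.17 (SE), from 34.6, 40.5, 25.6 and 45.4 CPM to 19.5, 22.9, 23.2 and 20.2 CPM, and differed by -0.36 ± 0.25 (SE) in TRAP, not called. Without TRAP libraries 3 to 6 it was called there, at -0.59 ± 0.20 (SE, adjusted p = 0.0373, edgeR), as it was without library 5 alone (-0.52). Dkk3, a secreted Dickkopf family protein, was likewise called in TRAP when libraries 3 to 6 were left out, with -0.52 ± 0.18 (SE, adjusted p = 0.0458, edgeR) against -0.34 ± 0.21 (SE) with them.

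The remaining members that rose in TRAP were Wnt6 (1.91 ± 0.65, SE), Lrp5 (0.90 ± 0.27, SE), Wnt7b (0.84), Fzd8 (0.74), Tcf7l1 (0.71) and Fzd2 (0.52). Wnt6 was at 0 to 0.148 CPM (median 0.0543) in experiment 1 and 0.0258 to 0.799 CPM (median 0.177) in experiment 2, and only 7 of 16 fits that left out 1 library called it. Without library 2, which held the highest value, the change was 1.45 ± 0.60 (SE). Lrp5 was at 0.668 to 2.10 CPM (median 0.972) and 1.18 to 2.99 CPM (median 1.95) and was not called without library 8 (0.78 ± 0.28, SE), nor Fzd8 without library 1 (0.55 ± 0.21, SE). In pre-TRAP the calls also leaned on single libraries: Rnf43 was lost without library 20, Kremen1 without 18, 20 or 22, Fzd6 without 24, Znrf3 without 18 or 24 and Wnt5a without 20 or 24, with log2 values of 0.83, of 0.73, 0.76 and 0.83, of -0.73, of -0.71 and -0.66, and of -0.62 and -0.57.

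**Figure D5:**
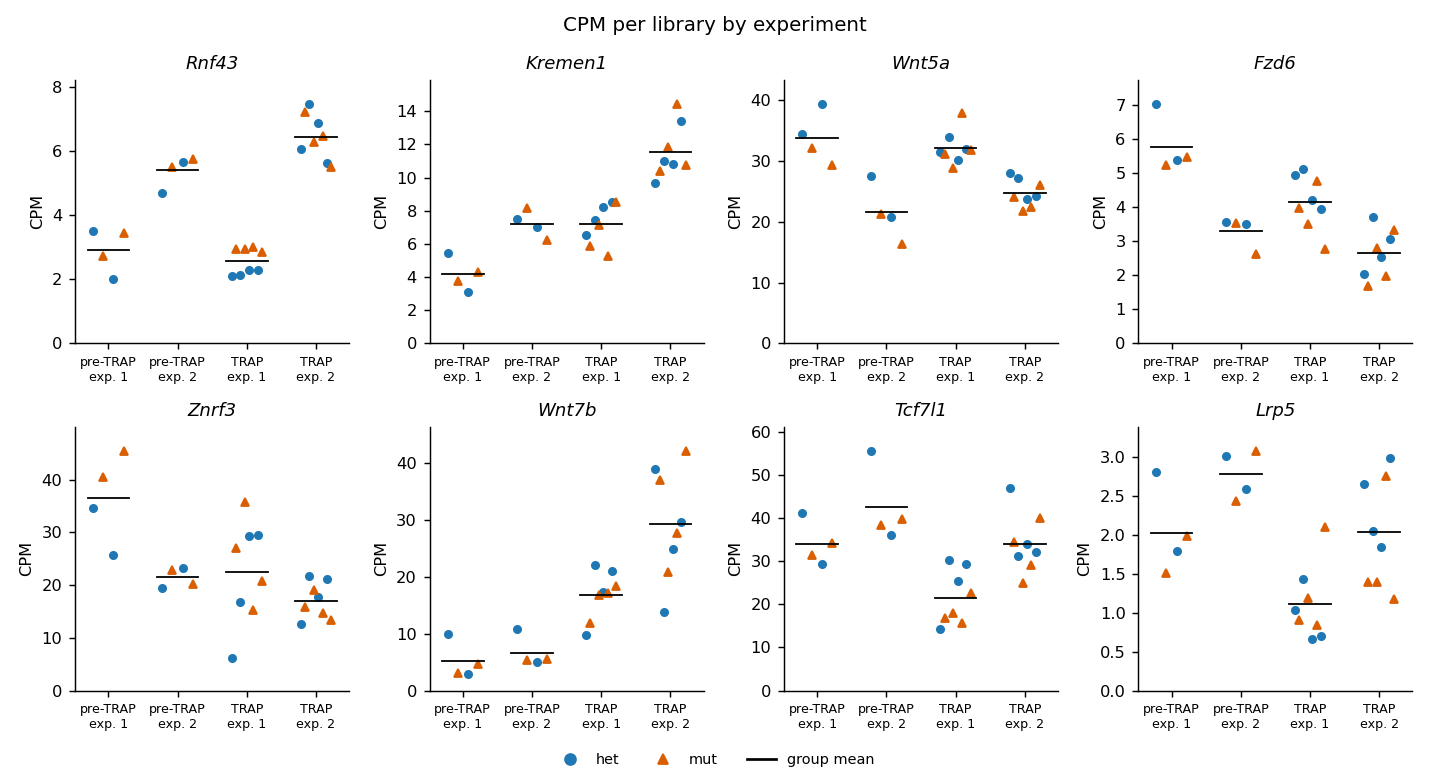
CPM in each library for 8 members by method and experiment, with circles for het, triangles for mut and a line at the mean. Rnf43 and Kremen1 are higher and Wnt5a lower in experiment 2 without overlap by either method, while the experiments overlap for Wnt7b and Lrp5.

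Marker sums differed between the experiments too. The 4 melanocyte markers summed to 1.02 to 5.01 CPM in experiment 1 and 28.8 to 66.4 CPM in experiment 2 of TRAP. Their pre-TRAP sums were 15.2 to 22.6 CPM and 289.6 to 469.7 CPM. These sums do not describe the list as a whole. Of the 4 pre-TRAP log2 values, -1.01 to 5.085 with a median of -0.46, edgeR called 1 as higher and 1 as lower. Only 2 of these markers were tested in TRAP, at -0.27 and 5.00, and 1 was called, as higher. The 9 neuron markers summed to 3801 to 4862 CPM and 2540 to 4103 CPM in TRAP, and to 693.5 to 776.1 CPM and 496.5 to 687.4 CPM in pre-TRAP. In pre-TRAP the sums of the roof and non-sensory epithelium list and of the otic epithelium list were also lower in experiment 2 without overlap. They were 498.1 to 801.6 CPM and 352.4 to 377.6 CPM for the 6 roof and non-sensory epithelium markers. For the 8 otic epithelium markers they were 609.2 to 966.1 CPM and 442.7 to 509 CPM. Taken singly, 1 marker of each list was called as lower there by edgeR and none as higher. Log2 values ran from -0.92 to 0.61 (median -0.20) in the roof list and from -0.92 to 0.18 (median -0.39) in the otic list. Both lists hold the marker Oc90, and the lowest value was the same in both, so the falls of these sums are not separate results. The part of all these markers in the differences of the Wnt genes was not tested. Of the further Wnt pathway genes 10 of 50 rose and none fell in TRAP, led by 0.94 ± 0.21 (SE, adjusted p = 0.00244) for Gsk3a, a kinase of the destruction complex, and 0.93 ± 0.27 (SE, adjusted p = 0.0143) for Dact2, a Dishevelled-binding antagonist. In pre-TRAP 3 of 50 rose and 1 fell. Ccnd1 rose by 0.83 ± 0.18 (SE, adjusted p = 0.00737), Dvl2, a Dishevelled, by 0.79 ± 0.20 (SE, adjusted p = 0.0211), and Sostdc1 changed by -0.81 ± 0.17 (SE, adjusted p = 0.00734).

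The genotype difference in TRAP was also compared between the experiments: edgeR called 0 of 46 members and 0% of all genes, and none had an unadjusted p under 0.05 (2.11% of all genes). The 3 lowest p values belonged to Rspo1, with -1.23 ± 0.64 (SE, unadjusted p = 0.0713, edgeR), Wnt5b, with -1.21 ± 0.66 (SE, unadjusted p = 0.0803, edgeR), and Wnt6, with 2.21 ± 1.29 (SE, unadjusted p = 0.102, edgeR). DESeq2 and limma voom called 0 members as well, and 0% of all genes.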

How the data were processed

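Polyadenylated RNA was measured in 24 libraries, prepared with a Picopure kit and a Clontech SMARTer kit per the labels. The authors deposited raw, unnormalized read counts per Ensembl gene and library. STAR, DESeq2 and GRCm38.p5 appear in the submitters' processing notes (versions, roles, annotation, counting tool and strand setting: not given in the sources used here), so reads of a gene and of an antisense or overlapping partner may not be told apart. Of 53946 Ensembl identifiers 53274 had a symbol, and 10068 genes had no count.

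Each comparison was fitted over all genes with R 4.3.3 and edgeR 4.0.16, using TMM normalization (factors 0.801 to 1.142), filterByExpr with a minimum count of 10, experiment or genotype as covariate, quasi-likelihood tests and Benjamini-Hochberg adjustment, called under 0.05. CPM values use the same factors. They depend on gene length, so levels are not compared between genes. Alternatives were DESeq2 size factors, no filter, DESeq2 1.42.0, limma 3.58.1 voom with quality weights, no covariate, single experiments or genotypes, all libraries in 1 fit, and leaving out each library, or TRAP libraries 3 to 6 together (added after seeing the data). The fits were also run on simulated counts with known changes. These changes were planted only in genes above a limit on low counts, so the run does not speak for members with few counts. In all 68 pairs of libraries within a group the counts differed beyond counting error (chi-square per degree of freedom of at least 23.8). No label ties libraries of the 2 methods to each other or says that pools were independent, so p-values measure the spread between these libraries.

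The 50 members, the further Wnt genes and the marker lists were chosen with earlier results of these data known. Library values are given for the 3 members of lowest p in each genotype comparison, the 2 highest and 2 lowest called log2 changes per role in TRAP against pre-TRAP, and the 3 largest called changes per direction between experiments. Library values of Axin2, Lgr5 and, between genotypes, of Sp5, Tcf7 and Lef1 were added after values were seen. Other members are named by fold change, and further Wnt genes by up to 2 called examples per direction.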

Additional observations from a re-analysis of the deposited data

Results flagged for a closer look

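Of 192 sets of values (48 members in 4 groups), 10 held a highest library set apart from the rest of its group by Dixon's criterion; chance flags about 1 in 20. In TRAP het, library 3 read 86.7 CPM of Tcf7l2 (next 56.0) and 4.01 CPM of Wif1 (next 2.41), library 9 read 2.02 CPM of Rspo3 (next 1.07) and library 1 read 6.22 CPM of Fzd8 (next 2.87). In TRAP mut, library 6 read 1.46 CPM of Wnt5b (next 0.736), library 2 read 0.799 CPM of Wnt6 (next 0.285), library 10 read 47.1 CPM of Fzd3 (next 37.0) and library 16 read 9.11 CPM of Tcf7 (next 6.22). For Fzd5 library 17 read 1.47 CPM in pre-TRAP het (next 0.733) and library 18 read 1.11 CPM in pre-TRAP mut (next 0.578). Libraries 3 and 6 are among the 4 TRAP libraries with the most cartilage marker RNA. Its part in these values was not tested.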

How the results depend on the processing

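For the 42 member values examined, 1096 of 1144 alternative fits kept the direction and the side of the threshold, 48 kept the direction but lost the call, and 0 reversed. The 42 include the 3 members of lowest p in each genotype comparison and interaction, which were uncalled from the start. Most of these fits left out only 1 library, so the pooled count does not measure how firm the calls are. No member was called in a genotype comparison or interaction under any alternative. In TRAP against pre-TRAP the members called as lower went from 32 to 20 in experiment 2 alone, and the genes called from 14320 to 9249 in the het libraries alone. Genes called in the TRAP genotype comparison went from 16 to 27 without the filter, 53 in DESeq2, 31 in voom, 4 without the covariate, 2 in experiment 1 alone and 2 in experiment 2 alone, and 35 with all 24 libraries in 1 fit. In pre-TRAP they went from 1 to 2 in DESeq2, 0 without the covariate and 0 in experiment 2 alone. Both interactions went from 0 to 1 gene without the filter. Between experiments in TRAP, members higher went from 8 to 2 in het libraries alone, members lower from 2 to 0 in het and 0 in mut libraries alone and to 4 without TRAP libraries 3 to 6, and genes called from 4952 to 1174 in het and 3103 in mut libraries alone. In pre-TRAP, members higher went from 2 to 0 and genes called from 3231 to 596 in het libraries alone, and members lower from 3 to 5 in voom and 0 in het libraries alone. Fits on 1 experiment or genotype hold fewer libraries. The cause of the other shifts was not tested.

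With single libraries left out, the TRAP genotype comparison called 6 to 16 genes (6 without library 2, 8, 11 or 12) and the pre-TRAP one 1 to 2 (2 without library 18 or 20). TRAP against pre-TRAP gave 5 to 8 members higher, 25 to 33 lower and 13805 to 14495 genes. Between experiments in TRAP there were 6 to 11 members higher, 2 to 3 lower and 4148 to 6086 genes, and in pre-TRAP 0 (without library 20) to 4 higher, 0 (without library 24) to 4 lower and 1995 to 4925 genes. No paired analysis was possible because each library number in the labels occurs once, so no number is shared between groups. Low counts limit several members: Dkk1 held at most 18 counts in any library, Wnt6 0 to 28 and Notum 1 to 41.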
